A study of Mus musculus with 12 samples.

Results

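Tumour necrosis factor (TNF), the main early cytokine of activated macrophages, was followed together with 3 related ligands, 3 receptors and 2 receptor adaptors in bone marrow-derived macrophages. These 9 genes were taken by name, with earlier results of these data known, among 24445 genes with counts. All 9 had rows in the count tables of both conditions. Each gene was represented by its RefSeq transcript with the highest total count. Messenger RNA was sequenced in 12 libraries, 3 in each of 4 groups. The groups were KO macrophages given lipopolysaccharide (LPS), WT macrophages given LPS, untreated KO macrophages and untreated WT macrophages. DOT1L, a histone methyltransferase, was missing from the myeloid cells of KO mice, the labels naming Lyz2 (lysozyme) beside the C57BL/6 strain and giving no promoter or Cre line. All cells were grown from marrow for 7 to 8 days with 15% L929-conditioned medium, which supplies M-CSF, and the treated cells received 10 ng/mL of Escherichia coli LPS for 3 hours. The labels call the 3 libraries of a group biological replicates without tying them to animals, so p-values measure the spread between these libraries, part of which may be technical. No age of the mice is given in the labels used here.

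LPS, a component of the outer wall of Gram-negative bacteria, activates the receptor TLR4, and the transcription factor NF-kB then switches on Tnf and many other genes. TNF acts through the receptors TNFR1 (Tnfrsf1a), which carries a death domain and can start both inflammation and cell death, and TNFR2 (Tnfrsf1b), which binds the adaptors TRAF2 and TRAF1. The other ligands studied were 4-1BB ligand (Tnfsf9), a co-stimulator of T cells, TRAIL (Tnfsf10), which triggers cell death through death receptors, and BAFF (Tnfsf13b), a survival factor of B cells. Fas is a death receptor. TRAF2 joins several TNF receptors to ubiquitin ligases and NF-kB signalling, and TRAF1 pairs with it and is itself an NF-kB target.

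In the mm10 build, Tnf lay at chr17:35199367-35202007 and Tnfsf9 at chr17:57105287-57107758. Tnfsf10 lay at chr3:27317077-27339665, Tnfsf13b at chr8:10006229-10036000, Tnfrsf1a at chr6:125349723-125362483 and Tnfrsf1b at chr4:145212368-145246870. Fas lay at chr19:34290647-34327775, Traf1 at chr2:34941750-34961812 and Traf2 at chr2:25517982-25546940. Of the 9 genes, 3 overlap an annotated neighbour, Tnfsf9 with Gm11110, Traf1 with Gm52552 and Traf2 with Gm13433. The strand setting of the counting is not stated, so reads of such partners cannot be told apart. Gm11110 itself held 320 reads over the 12 libraries, against 9275 for Tnfsf9.

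Promoter windows of 250 bases before and 50 after the transcription start were matched by symbol in RefSeq (GRCm38.p6) for 8 of the 9 genes. The 250 bases before the start are shown for 4 of them. All 4 rose with LPS (below), but so did Tnfrsf1a, Tnfsf10 and Traf1, whose windows are not shown. The stretches shown are those of the ligand Tnf (chr17:35202008-35202257, minus strand), the receptors Tnfrsf1b (chr4:145246871-145247120, minus strand) and Fas (chr19:34290409-34290658, plus strand), and the adaptor Traf2 (chr2:25546941-25547190, minus strand). Each reads 5′ to 3′ on the strand of the gene. Capitals mark matches on either strand to GGGNNNNNCC, a loose form of the NF-kB site, to GAAANNGAAA, a form of the interferon-regulatory factor site, and to the TATA box TATAAA, and capitals that overlap run together.
Tnf: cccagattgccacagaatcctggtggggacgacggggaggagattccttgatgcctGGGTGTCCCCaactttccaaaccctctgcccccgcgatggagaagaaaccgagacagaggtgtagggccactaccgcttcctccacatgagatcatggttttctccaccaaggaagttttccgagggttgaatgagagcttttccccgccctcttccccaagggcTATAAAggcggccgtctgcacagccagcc
Tnfrsf1b: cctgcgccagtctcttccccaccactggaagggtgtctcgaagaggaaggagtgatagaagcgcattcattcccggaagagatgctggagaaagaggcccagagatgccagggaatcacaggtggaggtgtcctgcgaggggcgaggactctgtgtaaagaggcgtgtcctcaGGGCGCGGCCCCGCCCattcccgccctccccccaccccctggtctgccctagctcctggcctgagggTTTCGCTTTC
Fas: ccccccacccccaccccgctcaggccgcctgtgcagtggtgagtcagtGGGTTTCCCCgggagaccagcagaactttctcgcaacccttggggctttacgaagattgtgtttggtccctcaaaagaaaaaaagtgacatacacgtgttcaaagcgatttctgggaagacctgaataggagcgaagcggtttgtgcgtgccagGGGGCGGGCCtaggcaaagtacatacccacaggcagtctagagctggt
Traf2: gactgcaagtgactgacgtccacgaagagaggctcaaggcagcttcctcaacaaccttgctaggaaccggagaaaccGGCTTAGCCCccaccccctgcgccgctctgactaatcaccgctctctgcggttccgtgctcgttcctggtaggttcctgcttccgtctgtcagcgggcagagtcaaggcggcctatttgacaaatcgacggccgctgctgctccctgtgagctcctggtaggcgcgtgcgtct
The loose NF-kB letters were found in the 300-base windows of 5 of the 8 genes (Tnf, Tnfrsf1a, Tnfrsf1b, Fas and Traf2), beside 50.4% of 27025 windows of the same length. GAAANNGAAA was found in Tnfrsf1b, beside 3.49% of windows. It was also found in Tnfsf13b, but only in the later of its 2 windows. The shares over all windows count only the first listed window of each gene, so that match has no like share. TATAAA was found in Tnf alone among the 8, 29 bases before the start, beside 14.2% of windows. TGANTCA, a form of the AP-1 site, was found in Tnfsf13b and Fas, beside 7.93% of windows, and lies in the Fas stretch without capitals. The stricter NF-kB consensus was found in 0 of the 8 windows, beside 4.35% of all windows. Each stretch shown carries the loose NF-kB letters, while the windows of Tnfsf10 and Traf1 held no match to any of these motifs. A match is a description of the letters and no measure of binding.

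Libraries held 8.64 to 13.5 M (1e6) counts over 1 transcript per gene. Levels below are counts per 1e6 counts (CPM) on 1 scale for all 12 libraries, on which 3 counts, the smallest amount taken as detected, equal 0.222 to 0.347 CPM. All 6 macrophage markers (Adgre1, Csf1r, Cd68, Itgam, Fcgr1 and Mertk) were present, with a summed level of 5775 to 6443 CPM in LPS-treated KO, 5484 to 6918 CPM in LPS-treated WT, 4777 to 5287 CPM in untreated KO and 4379 to 5843 CPM in untreated WT libraries. Dot1l, counted over its whole transcript, had 65.3 to 73.3 CPM in KO and 60.6 to 69.2 CPM in WT with LPS, and 85.7 to 97.8 CPM in KO and 82.4 to 111 CPM in WT without LPS. Which exons were deleted is not stated, and these reads are therefore no check of the genotype. Lyz2, the gene the labels name, had 2975 to 3439 CPM in KO and 6409 to 7977 CPM in WT with LPS. Untreated, Lyz2 had 2615 to 3032 CPM in KO and 5730 to 7213 CPM in WT. The cause of this difference was not tested. WT replicate 1 stood apart from the other 10 libraries in both conditions, at -35.6 with LPS and -36.1 untreated on a second principal component where the others lay between -3.55 and 12.9. It was also the shallowest, at 8.64 M counts with LPS and 8.98 M untreated, against 10.4 to 13.5 M in the others. The part of depth in this was not tested. Replicate 2 had under 1 CPM of Xist and 94.2 to 106 CPM of the Y-linked Ddx3y in all 4 groups, while the other 8 libraries had 542 to 822 CPM of Xist and 0 reads of Ddx3y. Each group thus held libraries of both sexes, from at least 2 mice. Calls between genotypes that appear without WT replicate 1 are given beside the genes concerned.

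The response to LPS was compared first, within each genotype. Of the 9 genes, 8 rose in KO and the same 8 rose in WT macrophages, by 2.02-fold (Tnfrsf1a) to 103-fold (Tnfsf10) in KO and by 2.003-fold (Tnfrsf1a) to 132-fold (Tnfsf10) in WT. Tnfsf13b did not pass the test in either genotype. LPS changed most of the transcriptome: 61.2% of 11984 genes tested passed an adjusted p of 0.05 in KO and 57.4% in WT, and 30.3% and 27.6% of genes passed as higher. All 3 LPS-treated libraries lay outside the range of the untreated ones for 9 of the 9 genes in KO and 8 in WT, beside 74.1% and 57.8% of all genes tested. The median log2 fold change of the 9 genes was 4.69 in KO and 4.31 in WT, beside -0.02 and -0.05 over all genes tested. Every one of these tests is edgeR's quasi-likelihood F test with Benjamini-Hochberg adjustment over all genes tested, and values after ± are standard errors unless called SD. A change in the number of responding cells and a change in RNA per cell cannot be told apart in these bulk libraries.

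**Figure D1:**
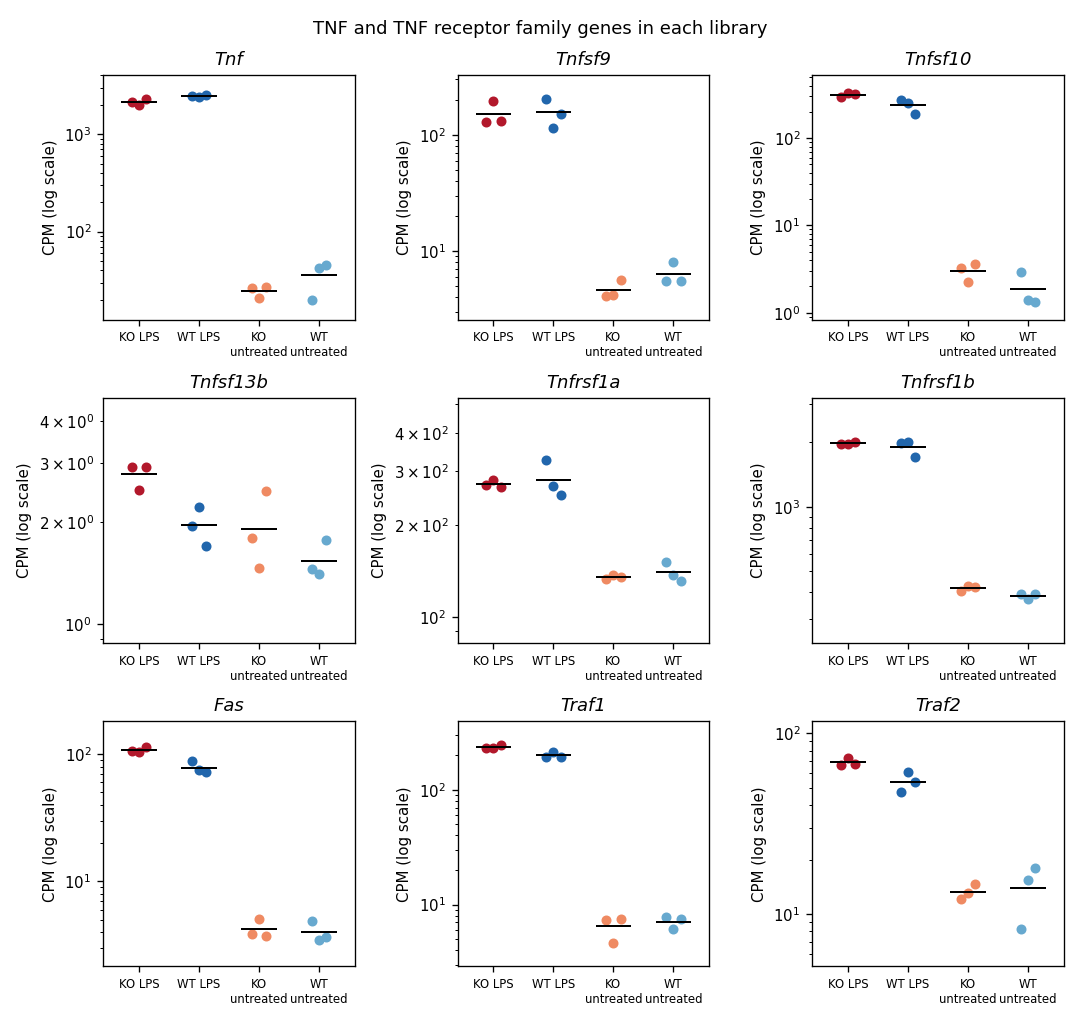
Level of each of the 9 genes in every library, in CPM on a log axis, by group (LPS-treated KO, LPS-treated WT, untreated KO, untreated WT; points are libraries, bars are group means, n = 3 each). In 8 panels both LPS-treated groups lie above both untreated groups, and only the panel of Tnfsf13b shows overlap, with WT libraries at 1.71 to 2.22 CPM with LPS and 1.41 to 1.77 CPM untreated.

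Among the ligands, Tnf had 2134, 1986 and 2314 CPM in LPS-treated KO, 2436, 2426 and 2541 CPM in LPS-treated WT, 26.7, 20.6 and 27.1 CPM in untreated KO, and 19.9, 42.2 and 45.3 CPM in untreated WT libraries. The lowest LPS-treated library was thus far above the highest untreated one, and untreated WT replicate 1 lay below both other libraries of its group by more than the range of the untreated KO libraries. The log2 fold change with LPS was 6.43 ± 0.26 in KO (adjusted p = 9.82e-11) and 6.10 ± 0.26 in WT (adjusted p = 1.6e-10), which is 86.3-fold and 68.5-fold.

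Tnfsf10 (TRAIL) had 293, 332 and 322 CPM in LPS-treated KO, 272, 255 and 191 CPM in LPS-treated WT, 3.23, 2.24 and 3.57 CPM in untreated KO, and 2.90, 1.41 and 1.33 CPM in untreated WT libraries. It had the largest fold change of the 9 genes in both genotypes, at a log2 fold change of 6.69 ± 0.22 in KO (adjusted p = 9.2e-12) and 7.04 ± 0.23 in WT (adjusted p = 1.27e-11). Tnfsf9 (4-1BB ligand) had 130.0, 196 and 131 CPM in LPS-treated KO, 206, 116 and 150.1 CPM in LPS-treated WT, 4.10, 4.18 and 5.59 CPM in untreated KO, and 5.52, 8.01 and 5.53 CPM in untreated WT libraries. Its LPS-treated libraries were spread over nearly the same range in both genotypes, and it rose by 5.04 ± 0.26 in KO (adjusted p = 1.02e-09) and by 4.61 ± 0.26 in WT (adjusted p = 2.33e-09) on the log2 scale.

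Tnfsf13b (BAFF) was scarce throughout, with 2.92, 2.49 and 2.91 CPM in LPS-treated KO, 1.95, 2.22 and 1.71 CPM in LPS-treated WT, 1.80, 1.47 and 2.47 CPM in untreated KO, and 1.45, 1.41 and 1.77 CPM in untreated WT libraries. These levels rest on 13 to 38 reads per library. The log2 fold change with LPS was 0.52 ± 0.22 in KO (adjusted p = 0.0571) and 0.35 ± 0.26 in WT (adjusted p = 0.28). Its direction depended on the scaling of the libraries: without scaling factors it was -0.07 in KO and -0.20 in WT, and with median-of-ratios size factors the KO value just passed the threshold (adjusted p = 0.0499).

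Among the receptors, Tnfrsf1b (TNFR2) had 1958, 1965 and 1993 CPM in LPS-treated KO, 1970.3, 1999 and 1706 CPM in LPS-treated WT, 406, 427 and 422 CPM in untreated KO, and 393, 372 and 394 CPM in untreated WT libraries. It rose by 2.24 ± 0.08 in KO (adjusted p = 2.64e-11) and by 2.29 ± 0.08 in WT (adjusted p = 2.51e-11) on the log2 scale, with little spread between libraries. Tnfrsf1a (TNFR1) moved less, with 271, 282 and 267 CPM in LPS-treated KO, 326, 268 and 250.5 CPM in LPS-treated WT, 133, 138 and 135 CPM in untreated KO, and 152, 138 and 132 CPM in untreated WT libraries. Its log2 fold change was 1.01 ± 0.10 in KO (adjusted p = 5.3e-07) and 1.002 ± 0.10 in WT (adjusted p = 6.92e-07).

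Fas was near the bottom of the range in untreated cells and rose steeply, with 106, 105 and 114 CPM in LPS-treated KO, 87.7, 75.7 and 72.2 CPM in LPS-treated WT, 3.85, 5.03 and 3.70 CPM in untreated KO, and 4.84, 3.44 and 3.69 CPM in untreated WT libraries. The KO libraries with LPS all lay above the WT libraries with LPS, while the untreated groups overlapped. The log2 fold change with LPS was 4.69 ± 0.14 in KO (adjusted p = 3.83e-12) and 4.31 ± 0.14 in WT (adjusted p = 1.16e-11).

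The adaptor Traf1 had 233, 230.2 and 248 CPM in LPS-treated KO, 193, 213 and 194 CPM in LPS-treated WT, 7.33, 4.64 and 7.47 CPM in untreated KO, and 7.74, 6.11 and 7.45 CPM in untreated WT libraries. It rose by 5.18 ± 0.15 in KO (adjusted p = 2.74e-12) and by 4.82 ± 0.15 in WT (adjusted p = 5.85e-12) on the log2 scale. Traf2, the more widely expressed adaptor, had 66.9, 72.8 and 67.8 CPM in LPS-treated KO, 47.4, 60.6 and 53.5 CPM in LPS-treated WT, 12.1, 13.1 and 14.6 CPM in untreated KO, and 8.22, 15.3 and 18.1 CPM in untreated WT libraries. Its rise was smaller, at 2.38 ± 0.20 in KO (adjusted p = 1.5e-07) and 1.94 ± 0.20 in WT (adjusted p = 1.54e-06), and untreated WT replicate 1 was the lowest library.

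**Figure D2:**
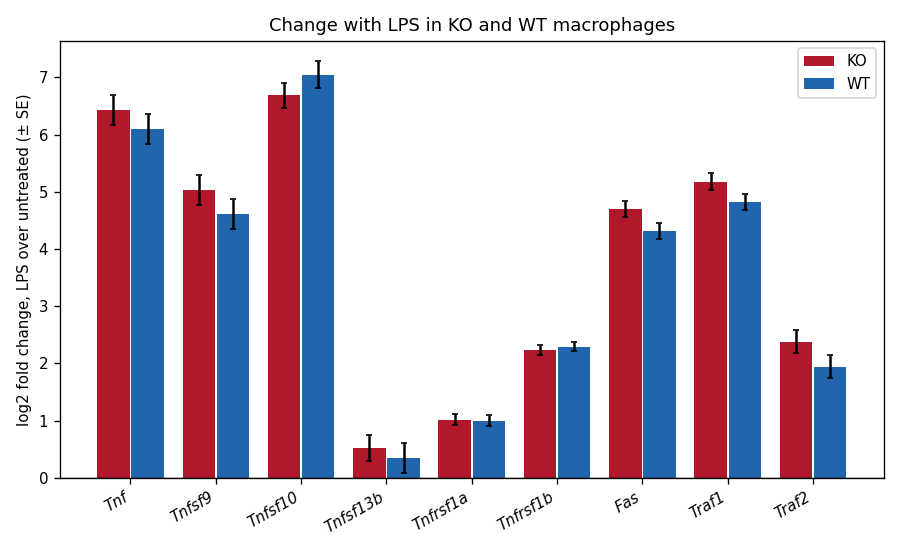
Log2 fold change with LPS over untreated cells for each of the 9 genes, in KO and WT macrophages (bars from 0, with standard errors of the fit on 12 libraries). The 8 genes that passed the test reach values between 1.002 and 7.04, and Tnfsf13b reaches 0.52 in KO and 0.35 in WT, a sign that turned in both genotypes without scaling factors.

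The scaling of the libraries matters for the size of these responses. The TMM factors were 0.772 to 0.847 in LPS-treated and 1.15 to 1.26 in untreated libraries, and without them the median of all genes tested moved to -0.62 in KO and -0.59 in WT. Calls then split into 1777 higher and 7823 lower in KO and 1723 higher and 7621 lower in WT, against 3633 higher and 3700 lower in KO and 3309 higher and 3567 lower in WT with the factors. The same 8 genes still passed as higher in both genotypes, the smallest being Tnfrsf1a at 0.42 in KO and 0.45 in WT. Markers of other cell types moved with LPS too. The summed level of the 3 monocyte markers (Ly6c2, Ccr2 and Vcan) was 248 to 255 CPM in LPS-treated KO, 161 to 209 CPM in LPS-treated WT, 37.1 to 54.7 CPM in untreated KO and 21.0 to 57.1 CPM in untreated WT libraries. Most of the LPS-treated sum was Vcan, at 238 ± 7.15 CPM in KO and 167 ± 20.2 CPM in WT (SD, n = 3 each). Of the 3 monocyte markers, 2 were called higher and 1 lower with LPS in each genotype. The 7 T and NK cell markers summed to 36.7 to 46.8 CPM in LPS-treated KO, 24.3 to 28.2 CPM in LPS-treated WT and at most 1.43 CPM in the untreated libraries. Nearly all of this was Lck, while Ncr1 had 0 reads in all 4 groups and Cd3g, Cd3e or Cd3d had 0 reads in each group. Of the 7 dendritic cell markers, 4 were tested and 3 were called higher with LPS in each genotype (Xcr1, Batf3 and Zbtb46), at no more than 5.67 CPM in any group mean, while Itgax, which makes up most of their sum, was at 0.09 ± 0.20 in KO (adjusted p = 0.713) and -0.10 ± 0.20 in WT (adjusted p = 0.706). That sum was 103 to 162 CPM in LPS-treated KO, 110 to 139 CPM in LPS-treated WT, 109 to 136 CPM in untreated KO and 92.9 to 162 CPM in untreated WT libraries. Sums of the other lists reached at most 48.7 CPM (neutrophils), 24.6 CPM (mast cells and basophils), 7.71 CPM (stromal cells) and 5.31 CPM (B cells) in any library. The part of these markers in the responses was not tested.

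Compared per transcript length, the receptors led in untreated cells and Tnf led with LPS. On the scale of the authors' RPKM (reads per kilobase of transcript, scaled to the reads of the library), LPS-treated KO cells had 959 ± 94.2 RPKM of Tnf, 296 ± 8.75 of Tnfrsf1b, 93.8 ± 0.46 of Tnfrsf1a and 91.1 ± 20.2 of Tnfsf9, and LPS-treated WT cells had 1078 ± 84.2, 277 ± 22.0, 94.0 ± 7.13 and 91.3 ± 21.1 RPKM in the same order (SD, n = 3 each). Tnfrsf1a and Tnfsf9 overlapped in both groups. Untreated KO cells had 94.5 ± 2.23 RPKM of Tnfrsf1b, 69.9 ± 0.83 of Tnfrsf1a and 16.7 ± 2.67 of Tnf, and untreated WT cells had 83.0 ± 3.81, 68.9 ± 2.08 and 23.2 ± 9.76 RPKM in the same order (SD, n = 3 each). These neighbours did not overlap in either untreated group.

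At the low end, Tnfsf13b was last with LPS, at 1.21 ± 0.13 RPKM in KO and 0.83 ± 0.12 in WT, and Tnfsf10 was last without LPS, at 0.68 ± 0.16 RPKM in KO and 0.39 ± 0.16 in WT (SD, n = 3 each). Between them, Fas led Tnfsf10 and Traf1 in LPS-treated KO cells without overlap, at 53.9 ± 3.49 RPKM against 47.0 ± 2.501 and 46.5 ± 2.75, whereas Traf1, Fas and Tnfsf10 ran from 38.4 to 34.7 RPKM in LPS-treated WT cells with overlapping neighbours. In the untreated groups Traf2 and Tnfsf9 overlapped each other at 4.18 to 5.48 RPKM. The ratio of Tnfrsf1b to Tnfrsf1a within a library was 3.16, 3.05 and 3.26 in LPS-treated KO, 2.64, 3.26 and 2.98 in LPS-treated WT, 1.33, 1.35 and 1.37 in untreated KO, and 1.13, 1.18 and 1.31 in untreated WT libraries. The ratio was thus higher in every LPS-treated library than in any untreated one, and every untreated KO library lay above every untreated WT library. The ratio was not tested. For single genes, the untreated KO and WT libraries did not overlap in 15.2% of all genes tested.

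**Figure D3:**
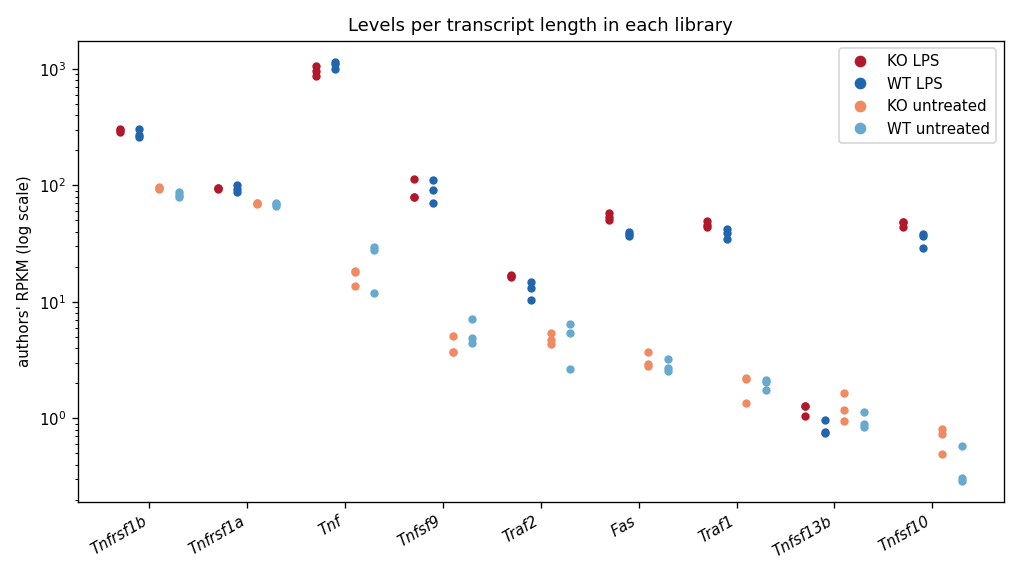
Level of each gene per transcript length in every library, as the authors' RPKM on a log axis, for LPS-treated KO, LPS-treated WT, untreated KO and untreated WT macrophages (points are libraries). Genes are ordered by their untreated level: Tnfrsf1b leads the untreated groups at 79.5 to 96.7 RPKM, and Tnf leads the LPS-treated groups at 863 to 1155 RPKM.

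Whether loss of DOT1L changed this set was asked next, first in LPS-treated cells. None of the 9 genes passed the adjusted threshold, in a comparison where 1.13% of 11264 genes passed (113 higher and 14 lower in KO). Fas was nearest to it. Its level was 108 ± 4.96 CPM in KO and 78.5 ± 8.09 CPM in WT (SD, n = 3 each), which is 1.37-fold, or 0.45 ± 0.09 in log2 (adjusted p = 0.0504). Fas passed in 4 alternatives, namely DESeq2 (adjusted p = 0.0122), no filter on low counts (0.0117), no scaling factors (0.023) and without WT replicate 1 (0.54, adjusted p = 0.00052), and over all alternatives its adjusted p ran to 0.392.

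Unadjusted p was under 0.05 for 5 of the 9 genes, beside 13.8% of all genes tested. These were Fas, Traf2, Tnfsf10, Traf1 and Tnf. Traf2 had 69.2 ± 3.22 CPM in KO and 53.8 ± 6.65 CPM in WT, or 0.35 ± 0.10 in log2 (adjusted p = 0.139). Tnfsf10 had 316 ± 20.4 CPM in KO and 239 ± 42.5 CPM in WT (SD, n = 3 each), or 0.39 ± 0.12 in log2 (adjusted p = 0.179). Without WT replicate 1, Tnfsf10 passed at 0.49 (adjusted p = 0.0121), and then 545 genes passed in all. Traf1 was at 0.23 ± 0.08 (adjusted p = 0.225).

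Tnf itself was the one gene of the set whose KO libraries all lay below the WT libraries. It had 2145 ± 164 CPM in KO and 2468 ± 63.9 CPM in WT (SD, n = 3 each), or -0.21 ± 0.09 in log2 with an approximate 95% interval of -0.40 to -0.02, which did not pass (adjusted p = 0.309). Tnfsf10, Tnfsf13b, Fas, Traf1 and Traf2 had all KO libraries above all WT libraries, so groups did not overlap in 6 of 9 genes, beside 20.3% of all genes tested. Tnfsf13b was at 0.49 ± 0.24 on 13 to 33 reads per library (adjusted p = 0.415). For Tnfsf9, Tnfrsf1a and Tnfrsf1b the groups overlapped, with log2 fold changes of -0.05 ± 0.22, -0.05 ± 0.10 and 0.05 ± 0.08 and adjusted p of 0.941, 0.867 and 0.836. The approximate 95% interval was -0.28 to 0.18 for Tnfrsf1a and -0.13 to 0.24 for Tnfrsf1b, and a wider -0.56 to 0.45 for Tnfsf9. The marker sums given above for monocytes and for T and NK cells were higher in KO than in WT with LPS. Vcan and Lck were the called markers. The stromal cell sum was higher too, at 4.52 to 7.71 CPM in KO and 1.82 to 4.05 CPM in WT. Only 1 stromal marker was tested, and it did not pass. The sum of the dendritic cell markers overlapped. Of the 3 monocyte markers, 2 had positive values and 1 a negative value (median log2 0.07). All 4 dendritic cell markers tested had positive values (median log2 0.78) and 2 of them did not overlap, Batf3 at 0.99 ± 0.22 (adjusted p = 0.0617) and Xcr1 at 0.90 ± 0.30 (adjusted p = 0.208), and none passed. Of the 6 macrophage markers, 4 had positive and 2 negative values (median log2 0.19). Groups did not overlap for 4 of the 6, and none passed. The part of these markers in these differences was not tested.

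Without LPS none of the 9 genes passed either, and 0% of 11622 genes passed in this comparison, while 7.24% had an unadjusted p under 0.05 and 0 of the 9 did. DESeq2 called 40 genes and none of the 9. Tnfrsf1b was the only one of the 9 whose groups did not overlap, at 418 ± 10.6 CPM in KO and 386 ± 12.5 CPM in WT (SD, n = 3 each), beside 15.2% of all genes tested. Its log2 fold change was 0.14 ± 0.07 (adjusted p = 0.786). The largest values belonged to Tnfsf10 at 0.76 ± 0.34 (adjusted p = 0.694), Tnf at -0.51 ± 0.28 (adjusted p = 0.786) and Tnfsf9 at -0.44 ± 0.21 (adjusted p = 0.74). Tnf levels were 24.8 ± 3.61 CPM in KO and 35.8 ± 13.9 CPM in WT (SD, n = 3 each). Without WT replicate 1 both Tnf, at -0.79 (adjusted p = 0.000605), and Tnfsf10, at 1.18 (adjusted p = 0.0238), passed, and 749 genes passed in all. No other omission gave such a call: Tnf was at -0.32 without WT replicate 3 and at -0.27 without both libraries numbered 2, Tnfsf10 was at 0.56 without WT replicate 3, and Tnfsf9 was at -0.24 without WT replicate 2 and -0.17 without both libraries numbered 2. The other 5 genes lay between -0.09 (Traf1) and 0.34 (Tnfsf13b), with adjusted p from 0.9 to 0.988. Of the 6 macrophage markers, 4 had positive and 2 negative values untreated (median log2 0.23). Groups did not overlap for 4 of the 6, beside 15.2% of all genes tested, and none passed. The part of these markers was not tested.

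**Figure D4:**
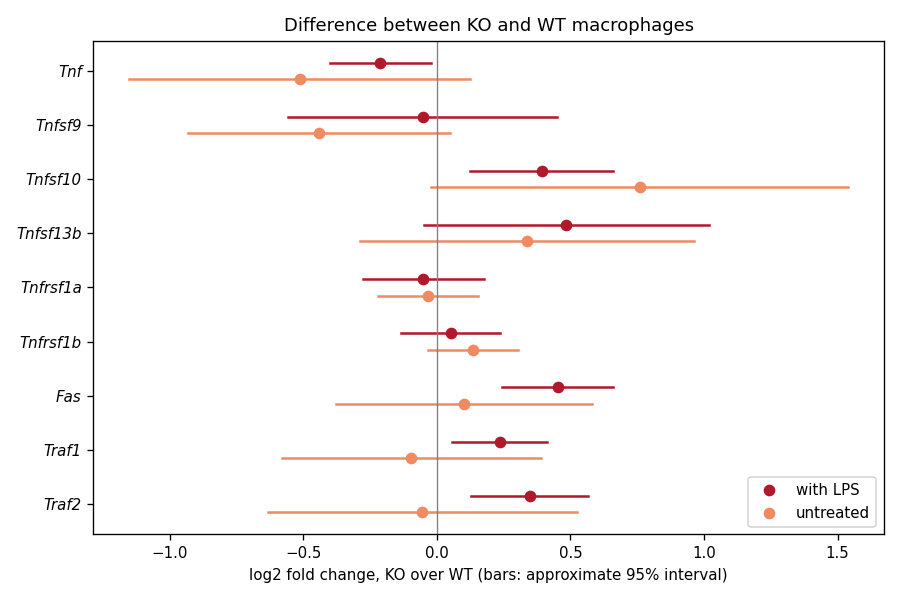
Log2 fold change of KO over WT for each of the 9 genes, with LPS and untreated (points, with approximate 95% intervals of the fits on 6 libraries each). With LPS, the intervals of Tnfsf10, Fas, Traf1 and Traf2 lie above 0 and that of Tnf lies below 0, and none of the 9 genes passed after adjustment over all genes in either condition.

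The difference between the LPS responses of the genotypes was tested directly as the genotype by LPS interaction. It passed for 0% of 11984 genes (2.4% had an unadjusted p under 0.05, and DESeq2 also called 0), and the adjusted p of each of the 9 genes was 1. The response of KO minus that of WT was 0.44 ± 0.28 for Traf2, 0.43 ± 0.36 for Tnfsf9, 0.38 ± 0.20 for Fas, 0.35 ± 0.20 for Traf1 and 0.33 ± 0.30 for Tnf on the log2 scale. With 1 library left out the value ran from 0.18 to 0.65 for Traf2, 0.18 to 0.66 for Tnfsf9, 0.21 to 0.49 for Fas, 0.14 to 0.43 for Traf1 and 0.10 to 0.58 for Tnf, and for Fas it was -0.97 with its lowest-count transcript. It was -0.35 ± 0.33 (-0.78 to -0.19 with 1 library left out) for Tnfsf10, 0.18 ± 0.35 for Tnfsf13b, -0.05 ± 0.11 for Tnfrsf1b and 0.01 ± 0.13 for Tnfrsf1a. The approximate 95% intervals were narrowest for Tnfrsf1b, at -0.29 to 0.18, and Tnfrsf1a, at -0.28 to 0.30, and wide for Tnf, at -0.32 to 0.99. Without both WT libraries numbered 1, Tnf was at 0.57 (adjusted p = 0.155) and Traf2 at 0.57 (adjusted p = 0.152), and none of the 9 passed. With the LPS-treated and untreated libraries of the same number and genotype paired by a block, none of the 9 passed either.

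The wider family was read from lists of genes, beginning with the TNF superfamily ligands. The counts of each list include those of the 9 genes that belong to it. Over all genes tested with LPS, 30.3% were called higher and 61.2% in either direction in KO, and 27.6% and 57.4% in WT. Of 18 ligands, 12 were tested in the LPS comparisons; 9 were called higher and 1 lower in KO, and 8 higher and 1 lower in WT (8 higher and 2 lower in each without scaling factors). The largest changes outside the 9 genes were those of Tnfsf15 (TL1A), at 8.04 ± 0.34 in KO (adjusted p = 1.14e-10) and 8.21 ± 0.35 in WT (adjusted p = 1.49e-10), and Tnfsf4 (OX40 ligand, a T cell co-stimulator), at 7.71 ± 0.18 in KO (adjusted p = 6.25e-13) and 7.05 ± 0.19 in WT (adjusted p = 1.96e-12). Lta (lymphotoxin alpha) was called too, on 76 reads with LPS against 2 untreated in KO and 60 against 1 in WT. Its ratio of CPM was 51.5 in KO (exact binomial 95% interval 13.8 to 433) and 90.2 in WT (15.6 to 3622), which covers counting error only.

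Between genotypes, 2 other ligands passed with LPS. Tnfsf4 had 186, 164 and 180 CPM in KO and 80.8, 99.8 and 114 CPM in WT libraries, without overlap, or 0.83 ± 0.12 in log2 (adjusted p = 0.00874). It passed in every alternative except without both libraries numbered 2 (adjusted p = 0.101) and without KO replicate 3 (0.0704). Tnfsf12 (TWEAK) had 111, 103 and 110 CPM in KO and 159, 134 and 145 CPM in WT libraries, or -0.45 ± 0.09 in log2 (adjusted p = 0.0472). This call was lost in 8 alternatives, among them the lowest-count transcript, the fit of all 12 libraries, the block and the removal of WT replicate 3 or of any KO library, where adjusted p reached 0.212. Without LPS no ligand passed, and Tnfsf12, the most abundant tested, was at -0.36 ± 0.12 (adjusted p = 0.549).

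Of 28 members of the receptor superfamily, 17 were tested in the LPS comparisons, and 8 were called higher and 5 lower in each genotype. Cd40, the receptor by which T cells help macrophages and B cells, led with 8.05 ± 0.15 in KO (adjusted p = 1.01e-13) and 7.60 ± 0.15 in WT (adjusted p = 1.52e-13). Its level was 1062, 1118 and 1109 CPM in LPS-treated KO, 860.0, 890.1 and 888 CPM in LPS-treated WT, and at most 5.16 CPM untreated. Tnfrsf9 (4-1BB), the receptor of Tnfsf9, rose by 4.95 ± 0.42 in KO (adjusted p = 1.82e-07) and 3.73 ± 0.57 in WT (adjusted p = 7.42e-05), on at most 2 reads in any untreated library. Tnfrsf8 (CD30) rose by 3.01 ± 0.43 in KO (adjusted p = 3.46e-05) and 2.10 ± 0.48 in WT (adjusted p = 0.0019). Relt was lower with LPS, at -2.74 ± 0.33 in KO (adjusted p = 6.53e-06) and -2.36 ± 0.36 in WT (adjusted p = 6.18e-05) on the log2 scale. Without scaling factors the 8 higher calls in each genotype stood beside 7 lower in KO and 8 lower in WT.

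Between genotypes, 1 of the 16 receptors tested passed with LPS, outside the 9 genes, beside 1.13% of 11264 genes tested. Tnfrsf9 had 4.69, 3.51 and 5.26 CPM in KO and 2.40, 1.01 and 1.36 CPM in WT libraries, or 1.55 ± 0.32 in log2 (adjusted p = 0.0473) on 10 to 56 reads per library. The call was lost in 7 alternatives, with the block, without both libraries numbered 2 and without any 1 LPS-treated library other than WT replicate 1, where adjusted p reached 0.225. Without LPS no receptor passed, the most abundant outside the 9 genes being Tnfrsf11a (RANK) at -0.11 ± 0.07 (adjusted p = 0.867). Leaving out WT replicate 1 added calls outside the 9 genes, namely Cd40 with LPS (0.29, adjusted p = 0.0123), and Tnfrsf12a (-0.71, adjusted p = 0.0411) and Tnfrsf26 (-0.36, adjusted p = 0.0252) untreated. Calls rose over the whole transcriptome in these fits, to 4.76% of all genes tested with LPS and 6.34% untreated.

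**Figure D5:**
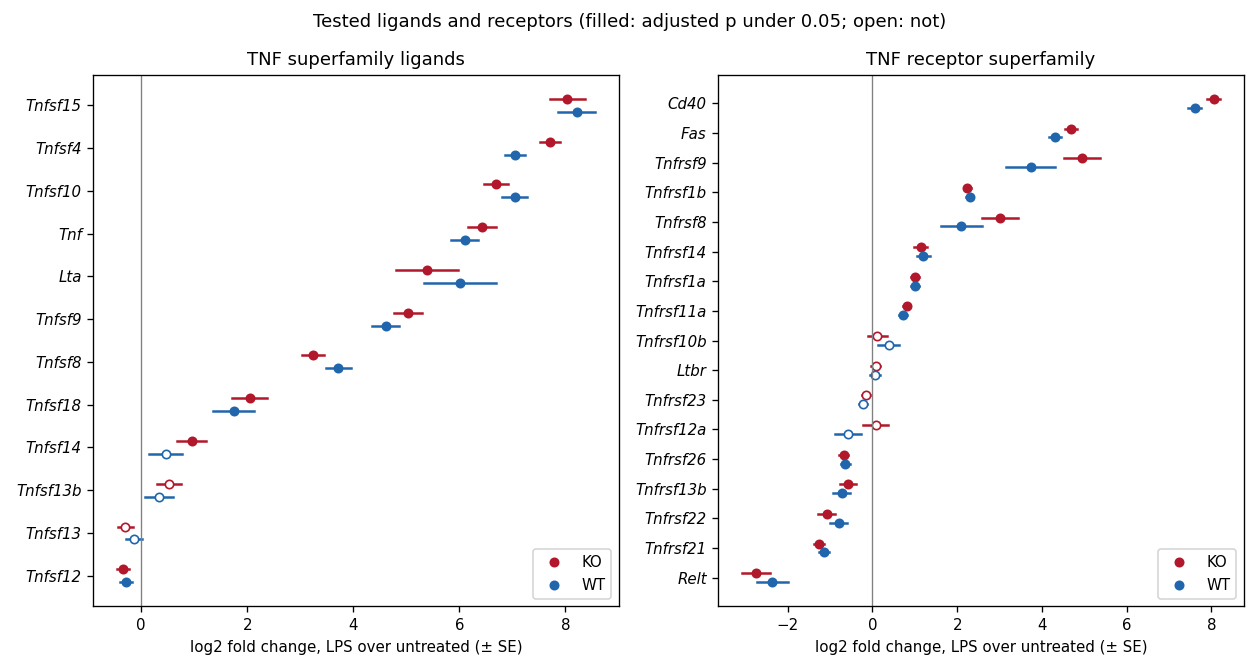
Log2 fold change with LPS over untreated cells (± SE) for the tested TNF superfamily ligands (left) and receptors (right), in KO and WT macrophages; filled points passed an adjusted p of 0.05. Ligands reach 8.21 (Tnfsf15 in WT) and receptors 8.05 (Cd40 in KO), and receptors lie on both sides of 0, with Relt lowest. The scaling of the libraries can turn the sign of small values, as the text gives for Tnfsf13b.

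Of the 7 TRAF adaptors, 6 were tested, and 3 were called higher and 0 lower with LPS in KO, and 3 higher and 2 lower in WT. In each genotype the 3 higher ones were Traf6 and, from the 9 genes, Traf1 and Traf2. Without scaling factors the counts were 2 higher and 2 lower in KO and 2 higher and 3 lower in WT. With the libraries paired, the KO counts were 4 higher and 2 lower. Traf6, which joins TLR4 and CD40 to NF-kB, was at 0.60 ± 0.08 in KO (adjusted p = 1.94e-05) and 0.57 ± 0.08 in WT (adjusted p = 3.77e-05), and at 0.01 in KO and 0.03 in WT without scaling factors. In WT, Traf3 was called at -0.48 ± 0.15 (adjusted p = 0.0163) and Traf7 at -0.23 ± 0.09 (adjusted p = 0.0343). Both calls were lost when WT replicate 1 with LPS was left out (-0.38 and -0.21), and in other alternatives. No TRAF adaptor passed between genotypes with or without LPS, where the most abundant tested outside the 9 genes were Traf6 at 0.03 ± 0.09 (adjusted p = 0.921) and Traf7 at 0.12 ± 0.09 (adjusted p = 0.891).

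All 30 genes of the receptor complexes and death signalling were tested, and 19 were called higher and 3 lower with LPS in each genotype. Tnfaip3 (A20), the deubiquitinase that restrains NF-kB, rose by 4.78 ± 0.14 in KO (adjusted p = 3.83e-12) and 4.21 ± 0.14 in WT (adjusted p = 1.05e-11). Cflar (cFLIP), the inhibitor of caspase-8, had 1771 ± 63.4 CPM in LPS-treated KO, 1907 ± 154 CPM in LPS-treated WT, 114 ± 7.99 CPM in untreated KO and 133 ± 12.0 CPM in untreated WT cells (SD, n = 3 each). It rose by 3.95 ± 0.10 in KO (adjusted p = 1.22e-12) and 3.85 ± 0.10 in WT (adjusted p = 1.7e-12). Tnip3, a partner of A20, rose by 4.17 ± 0.18 in KO (adjusted p = 1.06e-10) and 3.74 ± 0.17 in WT (adjusted p = 2.96e-10). Without scaling factors the counts were 14 higher and 11 lower in KO and 13 higher and 11 lower in WT. None of the 30 passed between genotypes; the most abundant was Cflar with LPS, at -0.12 ± 0.09 (adjusted p = 0.578), and Tax1bp1 without, at -0.13 ± 0.14 (adjusted p = 0.919). Without WT replicate 1, Tnip3 passed with LPS (0.45, adjusted p = 0.0108), and Tnfaip3 (-0.61, adjusted p = 9.77e-05) and Ripk3 (0.33, adjusted p = 0.0463) passed untreated. In these fits 4.76% of all genes tested passed with LPS and 6.34% untreated. Without both WT libraries numbered 1, Tnfaip3 passed in the interaction as well (0.69, adjusted p = 0.00454), beside 0.198% of all genes tested.

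Of 17 genes that shed TNF from the membrane or control its mRNA, 16 were tested, and 9 were called higher in each genotype with LPS, with 6 lower in KO and 5 lower in WT (7 higher and 7 lower in each without scaling factors). Zfp36 (tristetraprolin), which destabilises Tnf mRNA, rose by 3.16 ± 0.15 in KO (adjusted p = 3.47e-10) and 3.17 ± 0.15 in WT (adjusted p = 3.95e-10). The ribonuclease gene Zc3h12a (regnase-1) rose by 3.20 ± 0.09 in KO (adjusted p = 3.66e-12) and 3.31 ± 0.10 in WT (adjusted p = 3.86e-12). Zfp36l1, a relative of Zfp36, went the other way, at -3.39 ± 0.36 in KO (adjusted p = 1.67e-06) and -3.47 ± 0.36 in WT (adjusted p = 1.92e-06) on the log2 scale. None of the 16 passed between genotypes, the most abundant being Mapkapk2 with LPS, at 0.11 ± 0.08 (adjusted p = 0.591), and Litaf without, at 0.06 ± 0.07 (adjusted p = 0.943).

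The genes whose pattern over the 12 libraries was most like that of Tnf were the chemokine genes Ccl4 (Pearson r = 0.9996) and Ccl3 (r = 0.999), and Sap30 (r = 0.998), among 11983 other genes tested. The measure is the correlation of log2 CPM, and it is dominated by the difference between LPS-treated and untreated libraries, which the 12 points share.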

How the data were processed

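Per the labels' protocols, RNA was made into libraries with an mRNA kit and sequenced single-end at 50 bases. The mm10 build, STAR 2.5.2b and SAMtools 1.3.1 are named in the submitters' processing notes. The counting tool, its strand setting and its annotation are not given in sources used here. The authors deposited whole-number counts per RefSeq transcript and RPKM values, in separate tables for untreated and LPS-treated cells. Reads shared by isoforms appear once for each isoform, so 1 transcript per gene was kept, the one with the highest total count. Of 35745 transcripts, 35435 were named from a RefSeq table (GRCm38.p6) and 193 from GENCODE. The other 117 transcripts had no name, held 0.259% to 0.738% of a library's counts and were left out.

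Counts were tested with edgeR 4.0.16 (filterByExpr, TMM scaling, robust quasi-likelihood F test) in R 4.3.3, with Benjamini-Hochberg adjustment over all genes tested and a threshold of 0.05. Genotypes were compared on the 6 libraries of a condition, and LPS responses and the interaction on all 12 as 4 groups. Standard errors and approximate 95% intervals were derived from the F statistic and rest on 3 libraries per group. No permutation test of single genes was run, since 3 libraries against 3 allow no two-sided p below 0.1. RPKM served to set genes beside each other within a group. The alternatives were median-of-ratios size factors, DESeq2 1.42.0, no filter, the lowest-count transcript of a gene, a block for the replicate number, all 12 libraries in the genotype fits, and each library or both libraries numbered 2 left out. Added after seeing the data were fits without scaling factors and without both WT libraries numbered 1.

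The 9 genes and all lists were chosen with earlier results of these data known. From each list the text names called genes outside the 9, at most 4 by p between genotypes and 3 by size for LPS, or else the most abundant tested gene. Same-numbered LPS-treated and untreated libraries of a genotype deviated together. Their r of deviations from group means was 0.197 to 0.454 in KO and 0.298 to 0.567 in WT. The reported fits leave these pairs unmatched, and a block that pairs them is among the alternatives. With that block, 904 genes had an unadjusted p under 0.05 in the interaction, against 288 in the reported fit. The smallest adjusted p of the interaction F test was then 0.058, and no gene passed. The detection floor and the exact binomial intervals of Lta cover counting error only.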

Additional observations from a re-analysis of the deposited data

How the results depend on the processing

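The 8 genes called higher with LPS in each genotype passed under every alternative run, and Tnfsf13b joined them in KO with median-of-ratios size factors and without untreated KO replicate 3. Pairing the LPS-treated and untreated libraries by a replicate block changed no call of the 9 genes. Of the interaction, 24 genes (none of the 9) were called without both WT libraries numbered 1, against 0 otherwise.

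With LPS, 127 genes differed between genotypes in the reported fit. The count was 237 with DESeq2, 276 with no filter, 47 with a replicate block, 159 without scaling factors, and 17 without both libraries numbered 2, and leaving out 1 library gave 17 to 545, the highest without WT replicate 1. Of the 9 genes, 1 (Fas) passed with DESeq2, no filter or no scaling factors, and 0 to 2 with 1 library left out. Same-numbered KO and WT libraries correlated at -0.03 to 0.19 with LPS and 0.05 to 0.26 untreated. Those of different numbers correlated at -0.23 to 0.16 with LPS and -0.31 to 0.14 untreated. The labels do not tie the numbers to animals, and they were not taken as pairs between genotypes. Libraries numbered 2 nevertheless differ from the others in sex in all 4 groups. The calls of Tnfsf12 and Tnfrsf9 were lost with the block. Untreated, where the reported count is 0, it was 40 with DESeq2, 9 with no filter, 27 with all 12 libraries, 1 without scaling factors and 0 with the block, and 0 to 749 with 1 library left out, the highest without WT replicate 1; of the 9 genes 0 to 2 then passed.

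Signs turned for values near 0, for Fas in the interaction, and for the LPS values of Tnfsf13b (0.52 in KO and 0.35 in WT). The cause was not tested. With LPS and 1 library, or both libraries numbered 2, left out, Tnfsf9 ran from -0.45 to 0.19, Tnfrsf1a from -0.12 to 0.067, Tnfrsf1b from -0.014 to 0.095 and Traf6 from -0.022 to 0.065. Untreated and under the same omissions, Fas ran from -0.14 to 0.25, Traf1 from -0.22 to 0.090, Traf2 from -0.31 to 0.17, Tnfrsf1a from -0.084 to 0.030 and Tax1bp1 from -0.24 to 0.049. Untreated, Traf2 was at 0.0058 with the block and Tnfrsf1a at 0.0076 without scaling factors. For LPS, Tnfsf13b became -0.068 in KO and -0.20 in WT without scaling factors. In the interaction, Tnfrsf1a became -0.012 with median-of-ratios size factors, -0.011 with DESeq2, -0.030 without scaling factors and -0.079 to 0.13 with 1 library left out, and Fas became -0.97 when its lowest-count transcript, with 7.09% of the reads of the other, was used. Depth limits Tnfsf13b, which rests on 13 to 38 reads per library.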
